A study of Mus musculus with 6 samples.

Results

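Mt1, Mt2 and Mt3, the metallothionein genes of the deposited table, were followed in cochlear organoids placed in gels that were either soft or stiff. They were taken by their symbols and made up 3 of the 15016 genes listed. The 3 genes were picked with their soft and stiff values in these libraries already in view, so their difference between the gels is described here and was not tested. The organoids were 3-dimensional cultures of wild-type (WT) mouse cochlear progenitor cells from the inner ear. They were expanded for 8 to 10 days and then given a differentiation medium with 3 µM CHIR99021, a GSK3 inhibitor that raises Wnt signalling, and 5 µM LY411575, which blocks Notch signalling by inhibiting gamma-secretase. At that stage they went into hydrogels of either stiffness, so both groups shared the medium and its inhibitors and differed in the gel. Each group had 3 libraries. Whether these came from separate cultures or animals is not in the labels, so p-values measure only how these libraries vary, and that variation may be technical. None of gel stiffness, time in the gel or animal age is given in the sources used here.

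Metallothioneins are small proteins rich in cysteine that bind zinc and copper and release them again, so they buffer free metal ions and also react with oxidants. Mt1 and Mt2 are made in most tissues, and their RNA is known to rise with zinc, cadmium, glucocorticoids, inflammatory cytokines and oxidative stress. Mt3 is known mainly from the brain, where it was first described as an inhibitor of neurite growth, and responds less to metals. The zinc-sensing transcription factor MTF1 drives Mt1 and Mt2 through short metal response elements before their start sites.

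The genes lie side by side on the plus strand of chromosome 8 (build mm10, GENCODE): Mt3 at 94152607 to 94154146, Mt2 at 94172664 to 94173568 and Mt1 at 94179082 to 94180327. The start of Mt3 was 26.5 kb and that of Mt2 6.4 kb before the start of Mt1. The windows searched were the 250 bases before the start that RefSeq's promoter table gives for each gene. That start is also RefSeq's gene start for Mt2 and Mt3, but for Mt1 it is 94179089, 206 bases after RefSeq's gene start at 94178883, so most of the Mt1 window lies inside the RefSeq gene. The windows of Mt2 and Mt3 and the 30 bases around the core of Mt1 are printed because these neighbours differ in how many metal response element cores the windows hold. Capitals mark the cores, searched as TGCACNC or TGCGCNC on both strands, 5′ to 3′, in RefSeq sequence of GRCm38.p6, the assembly behind mm10.
Mt1, chr8:94179054-94179083: gcggtcccgctgTGCACACtggcgctccag
Mt2, chr8:94172368-94172617: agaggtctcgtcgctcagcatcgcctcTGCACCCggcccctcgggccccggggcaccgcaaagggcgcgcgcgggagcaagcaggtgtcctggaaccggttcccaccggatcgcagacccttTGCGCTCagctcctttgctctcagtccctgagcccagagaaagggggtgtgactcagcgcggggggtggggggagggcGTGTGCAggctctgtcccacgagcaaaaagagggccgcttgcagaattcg
Mt3, chr8:94152357-94152606: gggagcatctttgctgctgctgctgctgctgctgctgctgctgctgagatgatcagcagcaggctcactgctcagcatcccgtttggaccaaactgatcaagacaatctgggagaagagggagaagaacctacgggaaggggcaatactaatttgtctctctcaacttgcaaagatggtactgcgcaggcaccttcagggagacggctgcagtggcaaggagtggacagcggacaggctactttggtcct

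In the whole windows Mt1 had 1 core, Mt2 had 3 and Mt3 had 0. Among 32851 promoters of the same length, 21.4% held at least 1 core and 1.26% at least 3. The count depended on which start was used, since GENCODE lists 3 transcripts for Mt1, 2 for Mt2 and 3 for Mt3. In the 250 bases before the latest start among them, which lies 152 bases after the promoter table's start for Mt1 (358 after RefSeq's gene start), 242 for Mt2 and 139 for Mt3, there were 5 cores for Mt1, 4 for Mt2 and 3 for Mt3. This window was added after the first counts were seen, and 0.304% of the promoters in RefSeq's table held at least 4 cores and 0.0822% at least 5. The antioxidant response element core, TGACNNNGC on both strands, occurred once in the first window of Mt2, as TGACTCAGC, and in 10.2% of all promoters. Before the latest starts it was absent for Mt2 and occurred once for Mt1, as TGACTATGC. The hypoxia response element core, ACGTG on both strands, occurred once before Mt1 at either start, in neither window of Mt2 or Mt3, and in 16.6% of all promoters. A match is a run of letters and does not show that a factor was bound.

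Depth was 16108470 to 17899391 reads per library over the listed genes, rebuilt from the deposited values. Soft replicate 1 stood apart from soft replicates 2 and 3: on the first principal component of log2 expression (62.5% of the variance) it lay at -1.94, against -16.1 and -18.9 for those libraries and 7.89 to 17.3 for the stiff libraries. Of 14 supporting cell markers 14 were in the table, at a summed 846 to 1076 FPKM in soft and 1216 to 1274 FPKM in stiff gels. S100a1, Epcam and Gjb2 were the highest, at means of 471.7, 229.2 and 108.5 FPKM in soft gels. Fabp7, Fgfr3 and Prox1 had means under 1 FPKM in both groups. FPKM scales fragments to the length of the gene and the depth of the library. Hair cell markers were low, at 34.7 to 39.4 and 40.6 to 48.6 FPKM summed over the 7 of 12 that were in the table. Of 9 immune markers 3 were in the table, at 4.66 to 6.70 and 5.09 to 6.86 FPKM in all, and of 6 pigment cell markers 3, at 1.04 to 1.52 and 1.03 to 1.55 FPKM. Fibroblast markers summed to 616 to 744 and 770 to 792 FPKM, glial markers to 113 to 145 and 143 to 169 FPKM, neuron markers to 25.3 to 29.5 and 37.6 to 40.5 FPKM, and endothelial markers to 392 to 458 and 341 to 426 FPKM. Emcn made up most of the endothelial sum, at means of 396 and 357 FPKM, and Lum was the highest fibroblast marker, at 326 and 411 FPKM. Col1a1, Col1a2, Pecam1, Tie1 and Vwf had means under 1 FPKM in both groups. The part of shifts in these marker sums in the metallothionein values was not tested.

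Mt1 and Mt2 RNA in stiff gels was close to 50% of that in soft gels, and Mt3 was lower by a smaller step. Mt1 was at 16.1, 21.1 and 20.1 FPKM in soft replicates 1 to 3 and at 9.72, 11.98 and 7.01 FPKM in stiff replicates 1 to 3. The lowest soft library, replicate 1, was above the highest stiff library, replicate 2. The group means were 19.1 ± 2.62 and 9.57 ± 2.49 FPKM (SD, n = 3), a ratio of 0.501 and a difference in mean log2(FPKM + 1) of -0.95 (stiff minus soft). In bulk organoids, fewer cells with a transcript and less of it per cell cannot be told apart.

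Mt2 was at 20.4, 25.7 and 26.5 FPKM in soft gels and at 11.4, 13.8 and 12.2 FPKM in stiff gels. As for Mt1, soft replicate 1 was the lowest and stiff replicate 2 the highest library of its group, and the groups did not overlap. The means were 24.2 ± 3.30 and 12.5 ± 1.24 FPKM (SD, n = 3), a ratio of 0.514 and a difference of -0.90 in mean log2(FPKM + 1). Mt3, the brain-type member, was at 5.68, 4.98 and 5.40 FPKM in soft gels and at 3.96, 4.22 and 4.15 FPKM in stiff gels. Soft replicate 1 was the highest soft library here. At 53, 48 and 52 reads the soft libraries varied by less than counting alone gives, so their order for Mt3 was not resolved. Mt3 again did not overlap between the groups. Its means were 5.36 ± 0.352 and 4.11 ± 0.134 FPKM (SD, n = 3), a ratio of 0.768 and a difference of -0.31 in mean log2(FPKM + 1).

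**Figure D1:**
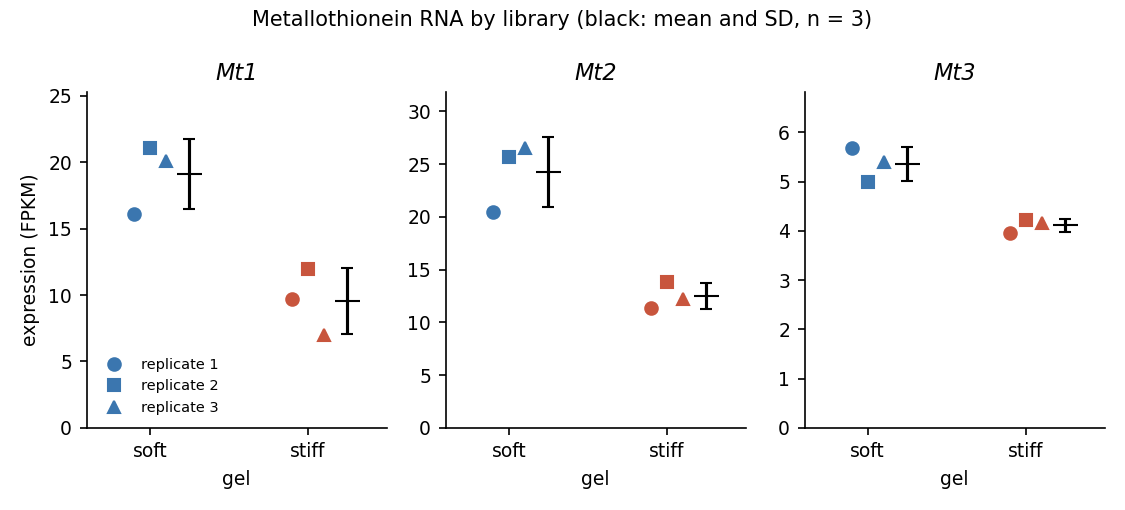
Expression of Mt1, Mt2 and Mt3 in FPKM (linear axes from 0) in each library, with soft gels in blue and stiff gels in red; symbols give the replicate number, and black bars the mean and SD of 3 libraries. Every stiff library lies below every soft library in the 3 panels, and soft replicate 1 is the lowest soft library for Mt1 and Mt2. The order of the soft libraries for Mt3 is within counting error.

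In all 3 genes every stiff library was thus below every soft library, as was so for 10.4% of the 11780 genes that passed the filter on low values (a mean of at least 1 FPKM in either group). Since the 3 genes were chosen on this comparison, nothing is read from that count. Their place among the listed genes shifted with the gel: 75.7% of the genes had a lower mean than Mt1 in soft gels and 57.9% in stiff gels. For Mt2 the shares were 80.7% and 64.9%, and for Mt3 44.8% and 39.3%. A difference of -0.9 or below was held by 76 of the 11780 genes (0.645%), Mt1 and Mt2 among them. The mark of -0.9 lies next to the values of Mt1 and Mt2, which were chosen on this comparison. Nothing is read from this share either. The median over the 11780 genes was 0.03. The authors' deposited table gives log2 fold changes of -1.02 for Mt1, -0.99 for Mt2 and -0.41 for Mt3. Their errors in that table are 0.185, 0.179 and 0.302, so the change of Mt3 is the least certain for its size.

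These values rest on 36 to 394 reads per gene and library. Mt1 had 292, 394 and 376 reads in the soft libraries and 181, 215 and 118 in the stiff libraries. Mt2 had 197, 256 and 264 reads against 113, 132 and 109, and Mt3 had 53, 48 and 52 against 38, 39 and 36. Together the 3 genes took 31.3, 39.0 and 38.7 CPM (reads scaled to equal library totals) in soft and 18.6, 22.5 and 16.3 CPM in stiff gels. For Mt1 the coefficient of variation between libraries, on reads scaled by size factors, was 14.6% in soft and 26.9% in stiff gels, where counting alone gives 5.32% and 7.64%. Mt2 varied by 14.7% and 10.2%, against 6.47% and 9.21% from counting. Mt3 varied by 5.99% and 3.05%, which is less than the 14.0% and 16.3% that counting alone gives, so its narrow SD understates the error of its level.

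Per length, the order was Mt2, Mt1, Mt3 in every library. The ranges of Mt2 and Mt1 overlapped within each group, while Mt3 was below both in all 6 libraries. The FPKM ratio of Mt1 to Mt2 was 0.789, 0.819 and 0.758 in soft gels and 0.852, 0.867 and 0.576 in stiff gels, so stiff replicate 3 had less Mt1 for its Mt2 than the other 5 libraries. By reads the order of these neighbours turned, with 1.08 to 1.63 reads of Mt1 for each read of Mt2. The scaling of the deposited values treats Mt1 as 1.88 times as long as Mt2, whereas the merged exons of GENCODE give 2.12 times. For Mt3 the gap is wider, at 0.968 times the length of Mt2 in the deposited scaling and 1.81 times by merged exons. With the GENCODE lengths the order per length stayed Mt2, Mt1, Mt3 in all 6 libraries, with ratios of 0.511 to 0.769 for Mt1 to Mt2 and 0.104 to 0.185 for Mt3 to Mt2, so the level of Mt3 relative to the others depends on the gene model. The FPKM ratio of Mt3 to Mt2 was 0.278, 0.194 and 0.204 in soft and 0.348, 0.305 and 0.341 in stiff gels. The ratio of Mt3 to Mt2 was thus higher in each stiff library than in any soft library, as a description of the chosen genes. Its closest values, 0.278 and 0.305, lie within the counting error of Mt3 (14.0% in soft and 16.3% in stiff gels). The FPKM ratio of Mt3 to Mt1 was 0.353, 0.237 and 0.269 in soft and 0.408, 0.352 and 0.593 in stiff gels. For this ratio the groups overlapped. Reads of the 3 genes can largely be told apart by sequence: 99.8% of the 25-base stretches of Mt1 transcripts, 97.8% of those of Mt2 and 99.7% of those of Mt3 occurred in transcripts of no other gene. How the authors placed reads with several matches is not given in the sources used here.

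Genes around the cluster were not used to choose the members, and none of those tested passed the test. Of the 13 other listed genes that start within 500 kb of Mt1, 12 were tested and 0 were called in either direction (limma, Benjamini-Hochberg adjusted p under 0.05), as were 0 with limma-voom on rebuilt reads. Over all genes 5.81% were called, 3.13% higher and 2.68% lower in stiff gels, so 0 of 12 does not set these neighbours apart from other genes. An unadjusted limma p under 0.05 was seen for 3 of the 12, and for 2562 of all 11780 tested genes. The differences of the 12 ran from -0.31 to 0.24 with a median of 0.05. The nearest tested gene before the cluster, Bbs2, which encodes a protein of the ciliary BBSome, was at 6.43 ± 0.774 and 6.92 ± 0.701 FPKM (SD, n = 3; limma adjusted p = 0.649). The nearest after it, the nuclear pore gene Nup93, was at 15.3 ± 1.81 and 15.6 ± 1.41 FPKM (limma adjusted p = 0.919). Without soft replicate 1, the calcium-binding copine gene Cpne2 was called lower (limma adjusted p = 0.0256), at a difference of -0.36.

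**Figure D2:**
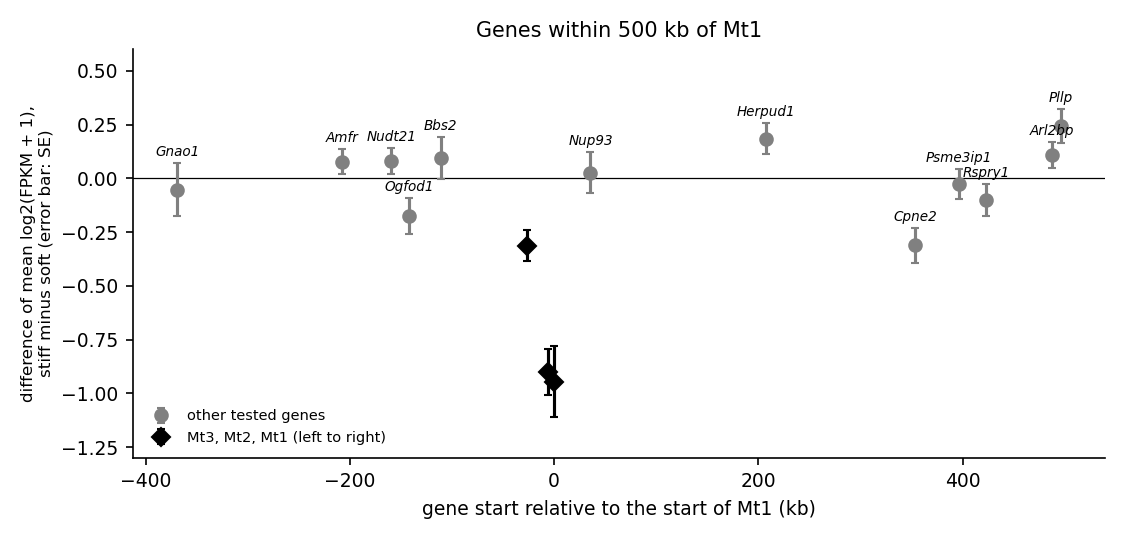
Difference of mean log2(FPKM + 1), stiff minus soft, with its SE, for tested genes against the distance of their start from that of Mt1 in kb. The 12 other genes (grey) lie between -0.31 and 0.24, and the 3 metallothioneins (black) between -0.95 and -0.31.

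Among the other genes of zinc handling, the exporter gene Slc30a1 fell, and limma on log2(FPKM + 1) called none of the remaining tested transporters. With limma-voom on rebuilt reads, 2 transporters (Slc30a1 and Slc39a1) were called lower and 1 (Slc39a8) higher. Slc30a1, which encodes the zinc exporter ZnT1 of the plasma membrane and is itself a target of MTF1 (chromosome 1, 191906697 to 191913248, RefSeq positions on GRCm38.p6 as for the genes that follow), was at 6.17, 5.47 and 6.22 FPKM in soft and at 4.43, 4.35 and 3.96 FPKM in stiff gels. All stiff libraries were below all soft libraries (difference -0.41 ± 0.08 SE, limma adjusted p = 0.0218). Its promoter window held 1 metal response element core and 1 antioxidant response element core, where 21.4% and 10.2% of all promoters held at least 1. The windows of Slc39a10 and Mtf1 held 0 of either core, and that of Nfe2l2 held 0 metal and 1 antioxidant core. Of 16 tested zinc exporters and importers 1 fell and 0 rose, where 2.68% of all tested genes fell and 3.13% rose. Of the 16, 13 had a negative difference, and the median was -0.07. The importer genes Slc39a1, at 65.1 and 52.0 FPKM, and Slc39a8, at 27.7 and 37.3 FPKM, had limma adjusted p = 0.0727 and 0.062 and opposite signs; both were named after their values were seen. Slc39a10, an importer gene that MTF1 is known to repress, was at 6.53 ± 0.278 and 6.39 ± 0.374 FPKM (SD, n = 3; limma adjusted p = 0.881). With a library left out, Slc30a1 was called only in the fit without soft replicate 1, and limma adjusted p reached 0.091 in the others.

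Mtf1 itself, the metal sensor, was at 3.79, 3.71 and 3.39 FPKM in soft and at 3.31, 3.38 and 3.12 FPKM in stiff gels. The stiff values were slightly lower without overlap, and the gene was not called (difference -0.12 ± 0.08 SE, limma adjusted p = 0.433). Of the 13 tested genes in the list of MTF1 and its other targets, 2 fell and 1 rose, with a median difference of -0.03. Over all tested genes 2.68% fell and 3.13% rose. Besides Slc30a1, Hmox1 fell; it encodes heme oxygenase 1, which breaks down heme, and answers to oxidants and heavy metals (chromosome 8, 75093618 to 75100593). Hmox1 was at 15.2, 20.6 and 21.0 FPKM in soft and at 10.9, 14.5 and 10.9 FPKM in stiff gels (difference -0.60 ± 0.14 SE, limma adjusted p = 0.0411). Soft replicate 1 was again the lowest soft and stiff replicate 2 the highest stiff library. Pgf, the gene of placental growth factor, went the other way (chromosome 12, 85166637 to 85177785): it rose from 0.960, 0.630 and 0.995 FPKM to 2.83, 2.94 and 2.80 FPKM (difference 1.06 ± 0.10 SE, limma adjusted p = 0.00333). Pgf stayed called whichever library was left out, whereas Hmox1 was called in 2 of these 6 fits, those lacking soft replicate 1 or stiff replicate 2, and reached limma adjusted p = 0.151 in the others. Gclc, which encodes the catalytic subunit of the enzyme that starts glutathione synthesis, was at 20.4 ± 1.78 and 20.5 ± 1.88 FPKM (SD, n = 3; limma adjusted p = 0.977).

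**Figure D3:**
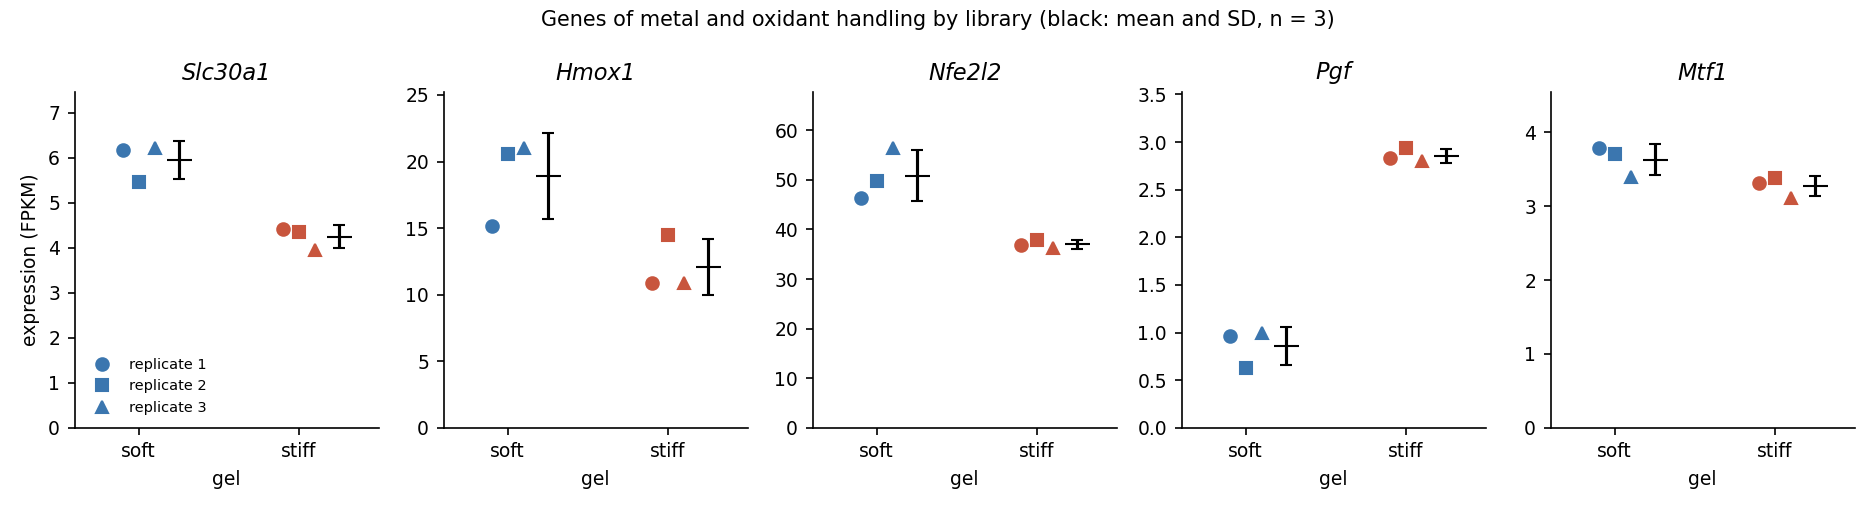
Expression in FPKM (linear axes from 0) of Slc30a1, Hmox1, Nfe2l2, Pgf and Mtf1 in each library, with soft gels in blue, stiff gels in red, symbols for replicate numbers, and black bars for the mean and SD of 3 libraries. Slc30a1, Hmox1 and Nfe2l2 are lower and Pgf is higher in each stiff library than in any soft library, and Mtf1 differs by less than 0.5 FPKM between the means.

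Of the copper genes 1 fell and 1 rose, and of the iron genes 2 fell and 0 rose. Over all tested genes 2.68% fell and 3.13% rose. Of 11 tested copper genes, Cp, which encodes the copper-carrying ferroxidase ceruloplasmin, fell from 22.4 ± 6.98 to 8.53 ± 1.68 FPKM (SD, n = 3; limma adjusted p = 0.0154). Ccs, the copper chaperone gene of superoxide dismutase, rose from 24.3 ± 0.770 to 31.6 ± 0.268 FPKM (limma adjusted p = 0.0113). The other 9 were not called by this fit, and the median difference of the list was 0.02. With limma-voom, or with no filter on low values, 2 copper genes were called lower; with limma-voom these were Cp and the copper exporter gene Atp7a. Of 16 tested iron genes 2 fell and 0 rose, with a median of -0.05. These were Hmox1 and Lcn2, the gene of the iron-chelating acute phase protein lipocalin 2, which went from 56.6 ± 24.6 to 12.3 ± 5.25 FPKM (limma adjusted p = 0.014). Leaving out soft replicate 2 ended the calls of Cp, Ccs and Lcn2, leaving out stiff replicate 1 those of Cp and Ccs, and leaving out stiff replicate 3 that of Cp. The highest limma adjusted p in these fits was 0.0756 for Cp, 0.0593 for Ccs and 0.059 for Lcn2.

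In the antioxidant and glutathione list 2 of 24 tested genes fell and 1 rose, where 2.68% of all tested genes fell and 3.13% rose. The median difference of the list was 0.05. Nfe2l2, which encodes the oxidant-sensing transcription factor NRF2 (chromosome 2, 75675513 to 75704663), was at 46.3, 49.7 and 56.4 FPKM in soft and at 36.8, 37.9 and 36.2 FPKM in stiff gels. The stiff libraries lay close together below the soft libraries (difference -0.44 ± 0.08 SE, limma adjusted p = 0.0159). The glutathione transferase gene Gstm1 rose from 25.6 ± 2.44 to 38.8 ± 4.50 FPKM (SD, n = 3; limma adjusted p = 0.0144), and Hmox1 was the other member that fell. Both Nfe2l2 and Gstm1 missed the threshold once soft replicate 2, stiff replicate 1 or stiff replicate 3 was dropped, with a highest limma adjusted p of 0.0718 and 0.0635.

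Of the lists of other known inducers of Mt1 and Mt2, the one for interleukin-6 type cytokines, STAT3 and acute phase genes had the most called members. Of its 18 genes 14 were in the table and 10 were tested. Of the 10 tested genes 8 fell and 0 rose, where 2.68% of all tested genes fell. The median difference was -0.90 beside 0.03 over all tested genes. The list was chosen with earlier results of these data known, so this count is a description. The members that fell, listed after their values were seen, were Cebpd, Socs3, Bcl3, Lcn2, Osmr, Cebpb, Lif and Il6st. Socs3, the feedback inhibitor of STAT3 signalling, named after its values were seen, was at 13.9, 21.8 and 22.5 FPKM in soft and at 7.62, 7.52 and 4.98 FPKM in stiff gels (difference -1.40, limma adjusted p = 0.00933). Stat3 itself was at 69.9 ± 7.19 and 54.1 ± 5.56 FPKM (SD, n = 3) and was not called (limma adjusted p = 0.0635). When soft replicates 1, 2 and 3 were dropped in turn, the count of members that fell was 9, 0 and 4, and for the stiff replicates it was 3, 7 and 4.

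Of 12 tested glucocorticoid-responsive genes 5 fell and 0 rose, where 2.68% of all tested genes fell, and the median difference was -0.23. Those that fell were Ddit4, Cebpd, Pdk4, Glul and Sgk1. Ddit4, an inhibitor of mTORC1 signalling that is also induced by hypoxia, fell from 92.7 ± 4.99 to 65.6 ± 3.01 FPKM (SD, n = 3; limma adjusted p = 0.00918) and stayed called whichever library was left out. Members differed in sign, and 7 of the 12 tested had a negative difference. Fkbp5 and Tsc22d3 had differences of 0.01 and 0.40 (limma adjusted p = 0.967 and 0.0705). Sgk1 and Klf9 had differences of -0.53 and -0.51 (limma adjusted p = 0.0348 and 0.117). Fkbp5, Tsc22d3, Sgk1 and Klf9 were named after their values were seen. The receptor gene Nr3c1 was at 6.70 ± 0.635 and 6.22 ± 0.255 FPKM (SD, n = 3; limma adjusted p = 0.581). Dropping soft replicates 1, 2 and 3 in turn gave 6, 1 and 2 genes that fell, and dropping the stiff replicates gave 2, 4 and 2. Without soft replicate 1 also 1 gene rose.

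Of 22 tested hypoxia-inducible genes 2 fell, Ddit4 and the oxygen-sensing hydroxylase gene Egln3, and 1 rose, Mxi1. Over all tested genes 2.68% fell and 3.13% rose. An unadjusted limma p under 0.05 was seen for 16 of the 22, and for 2562 of all 11780 tested genes. Of the 22, 19 had a negative difference, and the median was -0.47. Mxi1, which encodes an antagonist of MYC, went from 9.93 ± 0.807 to 14.2 ± 0.572 FPKM (SD, n = 3; limma adjusted p = 0.0109). Hif1a, the gene of the oxygen-regulated transcription factor subunit, was at 50.5 ± 3.43 and 54.0 ± 2.56 FPKM (SD, n = 3; limma adjusted p = 0.483). The number that fell was 6 with limma-voom, 9 when soft replicate 1 was dropped, 10 when stiff replicate 2 was dropped and 1 when any other library was dropped. The call of Mxi1 ended when soft replicate 2 or stiff replicate 3 was dropped. Ndrg1, a gene induced by hypoxia and by metals, was at 12.5, 23.2 and 20.5 FPKM in soft and 8.42, 11.8 and 5.33 FPKM in stiff gels, lowest in the library of each group where Mt1 was lowest, and was not called (limma adjusted p = 0.0527); it was named after its values were seen.

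**Figure D4:**
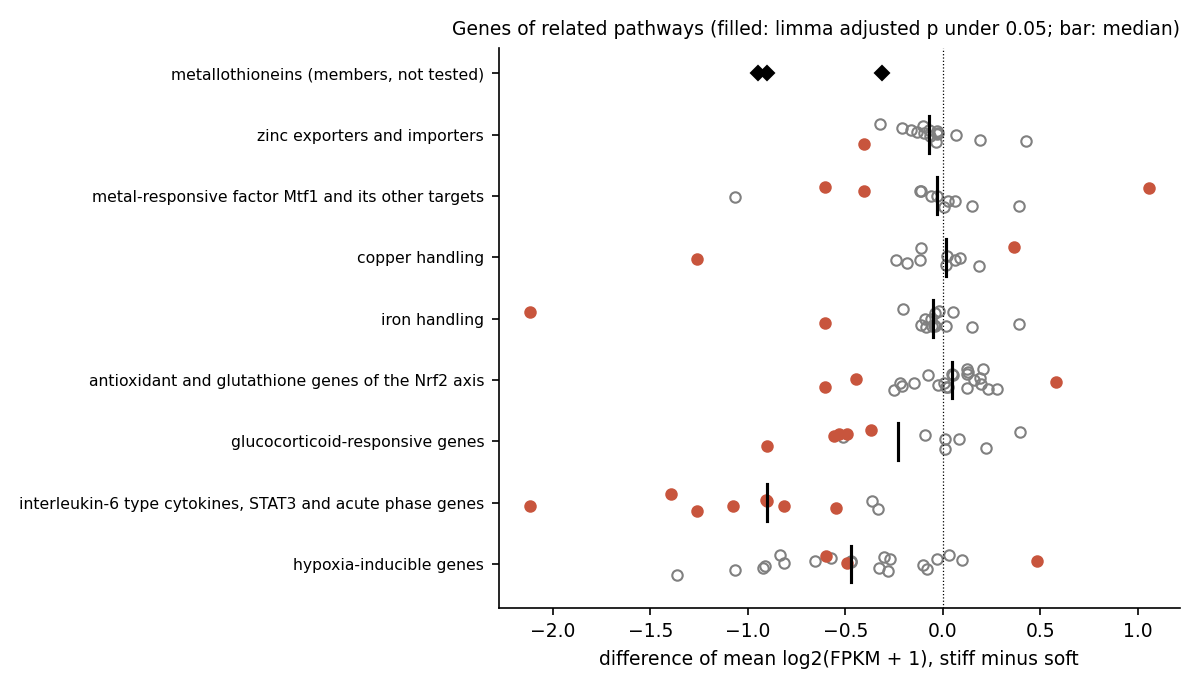
Difference of mean log2(FPKM + 1), stiff minus soft, for each tested gene of 8 lists of related genes; filled points passed the test (limma adjusted p under 0.05), black bars are list medians, and black diamonds are the metallothioneins, which were not tested. Medians of the metal and antioxidant lists lie between -0.07 and 0.05, those of the glucocorticoid, hypoxia and interleukin-6 lists at -0.23, -0.47 and -0.90.

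Over the 8 lists 113 different genes were tested, of which 17 fell and 4 rose, or 18.6% beside the 5.81% of all genes. Several genes stand in more than 1 list, among them Hmox1, Cebpd, Ddit4 and Lcn2. The lists were chosen with earlier results of these libraries known, so this share is a description. By the gene annotation in the deposited table, the 3 metallothioneins share 10 Gene Ontology terms. Of the 12 other tested genes under cellular zinc ion homeostasis only Slc30a1 was called, and 9 had a negative difference. Of 16 under cellular response to cadmium ion Hmox1 fell and Sox2 rose, of 8 under cellular response to copper ion only Nfe2l2 was called, and of 4 under cellular response to zinc ion 0 were called (limma). These terms were looked up after the values were seen.

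The metal response element core was also counted in the windows of the other tested genes that matched a RefSeq promoter. Among them, 155 of 6095 with 0 cores in the window fell (2.54%), 53 of 2372 with 1 core (2.23%), 12 of 712 with 2 cores (1.69%) and 1 of 245 with 3 or more (0.408%). The shares that rose were 2.95%, 3.12%, 3.09% and 1.22%. Differences between these shares were not tested.

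Genes whose values followed each member most closely were ranked among 8551 genes with a mean of at least 5 FPKM. The measure was the root mean square distance between log2(FPKM + 1) values over the 6 libraries, each gene centred on its own mean. It favours genes that also differ between the gels, so these genes were not tested here. The closest to Mt1 was Cebpd, a transcription factor of the acute phase response, at a distance of 0.103. Mt1 itself deviated from its mean by 0.527. Cebpd was at 7.53, 9.69 and 9.47 FPKM in soft and at 4.72, 4.77 and 3.46 FPKM in stiff gels, so soft replicate 1 and stiff replicate 3 were the lowest of their groups, as for Mt1. Next came the lactate dehydrogenase gene Ldha (0.105), Glipr2 (0.108), the oncostatin M receptor gene Osmr (0.110) and Moxd1 (0.112), which encodes a relative of the copper enzyme dopamine beta-hydroxylase.

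The closest to Mt2 was Hspb8, a small heat shock protein gene, at a distance of 0.077 against an own deviation of 0.471. It was at 39.0, 46.7 and 52.2 FPKM in soft and at 24.8, 26.6 and 22.4 FPKM in stiff gels. The transcription factor gene Atoh8 (0.098), Tmem176a (0.103), the G protein regulator gene Rgs5 (0.108) and Rai14 (0.114) followed. Mt1 and Mt2 were 0.176 apart, and 30 other genes were nearer to Mt1 and 41 nearer to Mt2 than the neighbour was. For Mt3, whose own deviation was 0.165, the closest was the caveolar coat gene Cavin1 (0.027), with Resf1 (0.032), S100a11 (0.040), the tropomyosin gene Tpm1 (0.047) and Nuak1 (0.048) after it. Cavin1 was at 15.1, 13.2 and 13.5 FPKM in soft and at 10.9, 11.5 and 11.3 FPKM in stiff gels. The order of the soft libraries for Mt3 was within counting error, so no likeness within that group is read from it. Mt3 was 0.406 from Mt1 and 0.335 from Mt2.

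**Figure D5:**
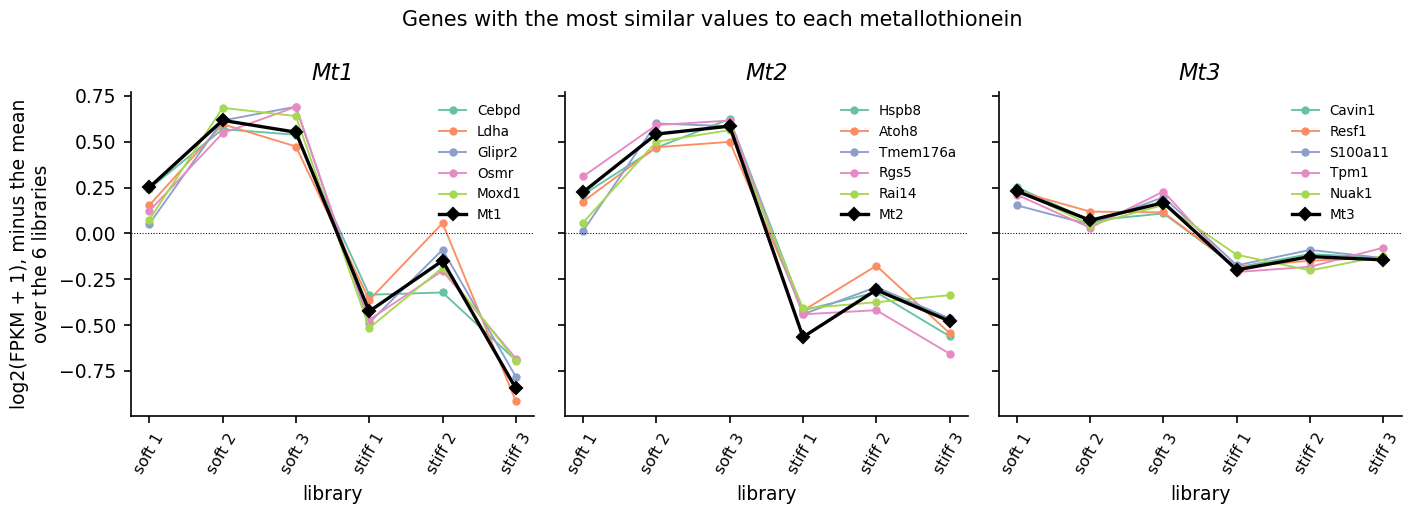
Values of log2(FPKM + 1) minus the gene's mean over the 6 libraries, for each metallothionein (black) and its 5 closest genes; the lines join libraries of a gene and imply no order. Mt1 and Mt2 deviate by 0.527 and 0.471 and are lowest among the soft libraries in replicate 1. Mt3 deviates by 0.165, and the order of its soft libraries is within counting error.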

How the data were processed

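Bulk RNA was sequenced from 3 organoid libraries per gel; they were made with the TruSeq v2 kit, which does not mark strand, per the labels' protocols. The authors deposited 1 table of 15016 genes. Its expression columns were read as FPKM from the values, since the deposited header does not name the unit. TopHat2 2.1.1, DESeq2 and the build mm10 are named per the submitters' processing notes; no counter or annotation is given in the sources used here. The table's base mean is a signal, the authors' mean of normalized counts, and the log2 fold change with its error, the linear fold ratio, the Wald statistic (a score) and the p-value and q-value are the authors' own comparison, per the file headers.

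Reads per gene were rebuilt from FPKM and base mean (100.0% of values whole within 0.05 reads). limma 3.58.1 in R 4.3.3, with an intensity trend and without a block, was fitted to log2(FPKM + 1) of 11780 genes with a mean of at least 1 FPKM in either group, with calls made where the Benjamini-Hochberg adjusted p was under 0.05. A pseudocount of 1 understates changes of low genes. A count of 0 allows up to 3 reads, or 0.168 to 0.186 CPM in these libraries, for counting error only. The rebuilding and the fit were tested on simulated data. The members, the 16 gene lists and the tests were chosen with earlier results of these data known. The text names the members, 9 genes of metal and stress control, the called gene of lowest adjusted p per list and direction, the 5 genes closest to each member, and the nearest tested gene on each side of the cluster; the other genes were named after their values were seen. A result under this rule is not reported here. Positions within 500 kb come from RefSeq GRCm38.p6 by gene ID (99.6% matched), since the table holds none. Alternatives were a pseudocount of 0.1, no filter, median-ratio scaling, limma-voom on rebuilt reads, a replicate block and leaving out each library.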

Additional observations from a re-analysis of the deposited data

How the results depend on the processing

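Mt1 and Mt2 kept their direction and moved by less than the spread between libraries under every alternative run, from -1.11 to -0.76 and from -1.01 to -0.83 with a library left out. Mt3 ran from -0.36 to -0.28 in those fits and was -0.40 with limma-voom, which has no pseudocount of 1 FPKM. Counts of calls depended on single libraries: with each left out, genes called higher ran from 50 to 860 and lower from 15 to 767, the most without soft replicate 1 and the fewest without soft replicate 2. Genes of the 8 lists called higher ran from 1 to 8 and lower from 1 to 31, and neighbours of the cluster called lower from 0 to 1. The cause was not tested. Of the 28 named genes that were called, dropping soft replicates 1, 2 and 3 in turn lost 1, 24 and 10, dropping stiff replicates 1, 2 and 3 lost 19, 5 and 15, and using no filter lost 6; 0 were lost with the pseudocount of 0.1, median-ratio scaling or limma-voom. Genes near 0 changed sign without being called. Gclc was at -0.0205 after median-ratio scaling, at -0.019 by limma-voom, and between -0.0611 and 0.0816 with a library left out. Nup93 was at -0.00047 after median-ratio scaling and between -0.0425 and 0.112 with a library left out, and Slc39a10 between -0.0621 and 0.011.

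With the replicate block, 381 genes were called higher and 329 lower, 2 of the 28 named genes were lost, and 10 hypoxia-inducible genes fell in place of 2. Libraries with the same number deviated together at r = 0.009, 0.219 and -0.211 across genes, so the numbers were not taken to pair the samples. Mt3, with 36 to 53 reads a library, is the member whose level depth limits most.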

Other observations

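The marker lists, which were not used in the metallothionein comparison, differed in their calls. Over all tested genes 3.13% were called higher and 2.68% lower in stiff gels, and a single call in a short list does not describe that list. Of 11 tested supporting cell markers 5 rose and 0 fell, among them the prosensory transcription factor gene Sox2, from 1.48 ± 0.797 to 5.03 ± 0.615 FPKM (SD, n = 3; limma adjusted p = 0.0104). Of 5 tested hair cell markers Calb2 rose (limma adjusted p = 0.0409). Calb2 was not called without the filter on low values (limma adjusted p = 0.0748) and was called in 1 of the 6 fits with a library left out, that without soft replicate 1; over these fits adjusted p reached 0.13. Of 5 tested neuron markers Isl1 rose (limma adjusted p = 0.0104) and the growth cone gene Gap43 fell (0.00965). Of 4 tested endothelial markers the VEGF receptor gene Kdr fell, from 24.7 ± 5.17 to 10.7 ± 2.05 FPKM (SD, n = 3; limma adjusted p = 0.0104). Of 9 tested fibroblast markers 0 were called (limma; 3 had an unadjusted p under 0.05, and limma-voom called 1 lower), and of 1 tested immune marker 0 (limma and limma-voom; 0 had an unadjusted p under 0.05). Of the supporting cell markers 1 rose when soft replicate 2 was left out and 0 when stiff replicate 1 was.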
